A study of Macaca fascicularis with 10 samples.

Results

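The genes described here build and run the actin cytoskeleton: actins, the alpha-actinins that cross-link them, myosin heavy and light chains, tropomyosins, troponins, the calponin family and the PDZ-LIM and LIM-only proteins. They were chosen by gene symbol alone: ACTA1, ACTA2, ACTB, ACTC1, ACTG1, ACTG2 and ACTN1 to ACTN4, every symbol that begins with MYH, MYL, MYO, TPM, PDLIM or FHL followed by a digit, the troponins TNNC, TNNI and TNNT, and TAGLN, TAGLN2 and CNN1 to CNN3. The rule found 73 of the 14132 genes that the array names through a single symbol. Each gene was read from 1 probe set, the one with the highest mean log2 signal. Of the 73 genes, 53 lay above the array median on at least 2 arrays and were tested, and 33 of these lay above the median on all 10 arrays. ACTA1, ACTA2, CNN2 and CNN3 had no probe set of their own and were not analysed here.

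Actin polymerises into filaments, and myosin 2, a motor of heavy and light chains, pulls on them to give the cell tension. Tropomyosin lies along the filament and decides which motors and binding proteins reach it, while calponins and transgelins bind the filament and are known as markers of contractile cells. Phosphorylation of the myosin light chain raises tension, and free actin holds back the MRTF cofactors of SRF, the transcription factor that drives many of these genes. Primate embryonic stem cells (ESCs) are known to die by actomyosin contraction when they are separated.

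The study measured mRNA of the cynomolgus monkey, Macaca fascicularis, on 10 Affymetrix arrays designed for the rhesus macaque. PG-haESCs are haploid ESCs derived from parthenogenetic embryos, which have no paternal genome, and gave 5 arrays: 4 titled as line MPH1 (at passages 8 and 11 under the description code M1, and at passages 7 and 9 under the code M2) and 1 of line MPH2 (code M12, passage 4). These are PG-haESC 1 to 5 below, in that order. ICSI-ESCs are diploid ESCs from embryos fertilised by sperm injection, with 1 array each of the lines MES1 (passage 12), MES2 (passage 4) and MES3 (passage 4), numbered ICSI-ESC 1 to 3. The third group is 2 arrays of MF cells, MF 1 and MF 2, at passages 14 and 15, labelled diploid female somatic fibroblasts. The culture text names PG-haESCs only, grown on feeder cells in medium with Y27635 (spelled as in the labels) and Thiazovivin, and it is attached to all samples. Nothing in the labels says that arrays of 1 line came from separate cultures, so p-values measure the spread between these arrays, which may in part be technical, and the number of arrays limits their precision. In bulk RNA, fewer cells of a type and less RNA per cell cannot be told apart.

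Values are MAS5 signals, a linear brightness scaled so that the 2%-trimmed mean of every array was 500. Array medians ran from 76.8 to 132.7. Of 9 pluripotency markers, 8 were called higher in both ESC groups than in MF: POU5F1 read 17260 to 33610 on the ESC arrays and 40.59 and 80.03 on the MF arrays. NANOG was not called, at 1107 to 2434 in ESCs and 2083 and 1904 in MF. The label of the MF cells was only partly borne out. Of 12 fibroblast and feeder markers, 4 were called lower in PG-haESCs and 5 in ICSI-ESCs than in MF, and 1 higher in each: COL1A1 read 8122 and 9202 in MF against 143.1 to 1825 in ESCs, but COL5A2 read 5392 and 4999 against 14870 to 21610, and THY1 overlapped, at 1864 and 1549 against 1185 to 4890. All 9 epidermal markers tested were also called higher on the MF arrays than in either ESC group, with summed signals of 311800 and 314800 against 3152 to 4997. These arrays are therefore called MF cells below. The summed signal of the fibroblast and feeder markers was 24010 to 62290 on 7 ESC arrays and 147900 on the MES1 array, against 201500 and 203100 in MF. The ratio of the array's 3' to 5' actin control probes, a measure of RNA length, was 8.39 and 9.14 in MF and 2.3 to 5.62 in ESCs, and its part in the MF differences was not tested.

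**Figure D1:**
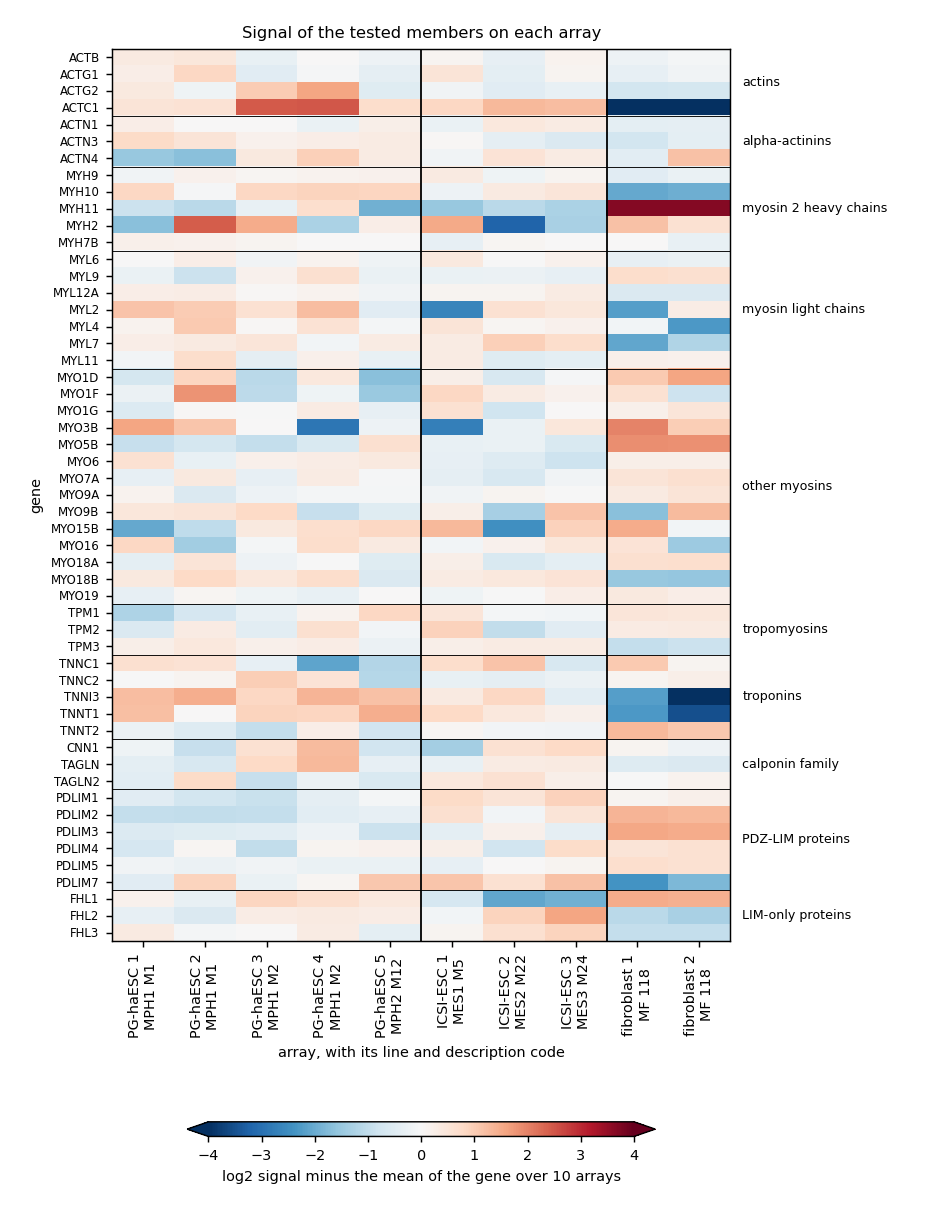
Heat map of the 53 tested genes (rows, grouped by role) on the 10 arrays (columns, grouped as PG-haESC, ICSI-ESC and MF), coloured by log2 signal minus the gene's mean over all arrays, from -4 to 4. The MF columns differ from the ESC columns in ACTC1, MYH10, MYH11, TNNT1, TNNI3, PDLIM3 and PDLIM7, whereas most rows change little between PG-haESC and ICSI-ESC.

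The first comparison asked whether haploid parthenogenetic ESCs and diploid fertilised ESCs expressed the contractile machinery alike. The 2 genes past the threshold were both LIM proteins: FHL1 was higher in PG-haESCs and PDLIM1 was lower, and the other 51 genes did not pass. Among all 11639 genes tested, 0.507% were called higher and 0.0687% lower, so 1 gene in each direction among 53 is a count too small to read against that background. Over all probe sets, 81.2% of the calls were on the higher side, and 21.4% with arrays centred on their medians, which left 14 probe sets called. The median difference was -0.05 on the log2 scale over the 53 genes and -0.02 over all genes. Fitted log2 differences here and below weight arrays by cell line, so they can differ from the ratio of the printed geometric means.

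FHL1 is a LIM-only protein known from muscle, where it sits at the sarcomere. Its signal on the PG-haESC arrays was 3750, 2711, 6035, 5316 and 4451, and on the ICSI-ESC arrays 2106, 788.2 and 894.1. Every PG-haESC array exceeded every ICSI-ESC array, with geometric means of 4289 (SD 0.45 on the log2 scale, n = 5) and 1141 (SD 0.77, n = 3). The fitted difference was 1.92 ± 0.37 (log2 ± SE), a 3.78-fold higher signal, with an adjusted p of 0.0481 (limma, Benjamini-Hochberg over all probe sets). FHL1 was the only one of the 72 genes with a placement on the T2T-MFA8v1.1 assembly that lies on the X chromosome. The 380 X-linked genes tested had a median PG-haESC minus ICSI-ESC difference of 0.67, against -0.03 for 10167 autosomal genes, and the part of the X in the FHL1 difference was not tested. The other 5 probe sets of FHL1 gave differences of 1.97 (adjusted p = 0.0766), 1.48 (0.0836), 1.30 (0.322), 1.14 (0.869) and -0.19 (0.974), none past the threshold.

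PDLIM1 carries a PDZ and a LIM domain and links alpha-actinin to stress fibres. Its signals were 1083, 880.8, 801.7, 1136 and 1403 in PG-haESCs and 2497, 2112 and 2783 in ICSI-ESCs. The ranges did not meet, and the geometric means were 1040 (SD 0.32, n = 5) and 2448 (SD 0.20, n = 3). PDLIM1 was 2.25-fold lower in PG-haESCs, with a difference of -1.17 ± 0.22 and an adjusted p of 0.0412.

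Both calls stood close to the threshold. The FHL1 call was lost when 8 of the 10 arrays were left out singly: MF 1 (adjusted p = 0.0797), MF 2 (0.0796), PG-haESC 1 (0.101), 3 (0.107), 4 (0.0912) and 5 (0.0778), and ICSI-ESC 2 (0.155) and 3 (0.222), with differences of 1.65 to 2.36 over all left-out arrays. The PDLIM1 call was lost without MF 1 (0.0707), MF 2 (0.0716), PG-haESC 1 (0.0848), 2 (0.0856), 3 (0.0843) or 4 (0.0645), or ICSI-ESC 2 (0.0842) or 3 (0.193), with differences of -1.34 to -1.08. Both calls also ended with the arrays of each line averaged first (adjusted p = 0.364 for FHL1 and 0.409 for PDLIM1), median centring (0.282 and 0.545), no variance trend (0.244 and 0.211), the 75th percentile filter (0.0728 and 0.059) or only the arrays of the groups compared (0.0753 and 0.0642), and that of PDLIM1 without the 2 arrays with the highest spike-in signals (0.0563).

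PDLIM2, MYO6 and ACTN3 also had ranges that did not meet, without passing the test. PDLIM2, a stress fibre protein that also directs ubiquitination, read 506.8, 492.3, 509.5, 733.9 and 777.7 in PG-haESCs and 1518, 902.9 and 1392 in ICSI-ESCs (difference -1.01 ± 0.26, adjusted p = 0.148). MYO6, the myosin that walks toward the minus end of actin filaments, read 1248, 668.7, 952.4, 1021 and 1080 against 651, 569.8 and 460.9 (0.83 ± 0.25, adjusted p = 0.288). For ACTN3, an alpha-actinin best known from fast muscle fibres, the signals were 578.7, 480.9, 384.3, 407.4 and 422.9 against 354.4, 265.1 and 226.2 (0.69 ± 0.28, adjusted p = 0.575). In its representative probe set MYO6 was level with MF in PG-haESCs, since the MF arrays read 974.5 and 976.4. The second MYO6 probe set read 377.1 and 408.2 in MF, 221 to 305.9 in PG-haESCs and 149.4 to 279.6 in ICSI-ESCs. There PG-haESCs lay below MF, and the ranges of the ESC groups overlapped (0.41 ± 0.30, adjusted p = 0.911).

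**Figure D2:**
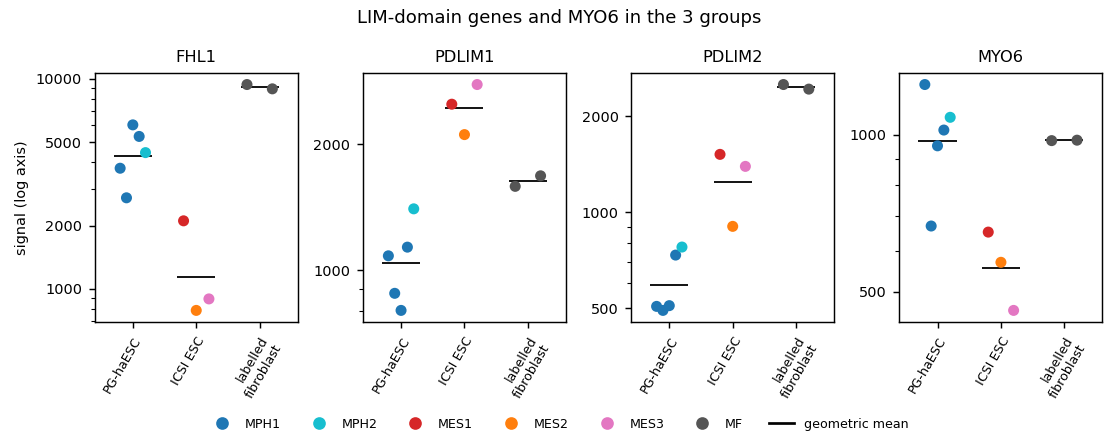
Signal of FHL1, PDLIM1, PDLIM2 and MYO6 on each array (points, log axis, colour by cell line) in PG-haESC, ICSI-ESC and MF, with a bar at each group's geometric mean. PG-haESC points lie above all ICSI-ESC points for FHL1 and MYO6 and below them for PDLIM1 and PDLIM2, and the MF points for FHL1 (9395 and 8961) lie above both ESC groups.

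The core of the cytoskeleton did not pass the test between the ESC groups. Beta-actin (ACTB), the main actin of most cells, read 33060 to 56570 in PG-haESCs and 32990 to 45230 in ICSI-ESCs (0.04 ± 0.23). Gamma-actin (ACTG1), its cytoplasmic partner, differed by -0.08 ± 0.34. The difference of MYH9, the heavy chain of non-muscle myosin 2A, was 0.00 ± 0.18, and that of MYH10, the heavy chain of myosin 2B, was 0.50 ± 0.28 (adjusted p = 0.821). Intervals were wider for genes of the contractile programme: ACTG2 (enteric smooth muscle actin) differed by 0.63 ± 0.44, ACTC1 (cardiac actin) by 0.14 ± 0.64, TAGLN (transgelin) by -0.05 ± 0.48 and CNN1 (calponin 1) by -0.13 ± 0.65. The remaining chosen genes were MYL9, a regulatory light chain, at 0.14 ± 0.33, TPM1 at -0.19 ± 0.40, TPM2 at 0.14 ± 0.44, ACTN1 at -0.08 ± 0.24 and ACTN4 at -0.46 ± 0.85. A miss of the threshold at these errors does not show equal expression.

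Against MF cells, more genes passed in both ESC groups. In PG-haESCs 11 of 53 genes were higher and 6 lower, and 36 did not pass, where 23% of all genes tested were higher and 17.3% lower. In ICSI-ESCs the counts were also 11 higher, 6 lower and 36 not passing, where 22.6% of all genes were higher and 17% lower. The shares of the cytoskeletal genes, 20.8% higher and 11.3% lower in each comparison, were thus near or below the background.

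The median differences were -0.21 (all genes 0.06) for PG-haESCs and 0.06 (all genes 0.08) for ICSI-ESCs. With arrays centred on their medians, which moves the median of all probe sets from -0.09 and -0.06 to 0.24 and 0.23, the counts became 11 higher and 4 lower for PG-haESCs and 13 higher and 4 lower for ICSI-ESCs. The share of all called probe sets that were higher moved with it from 51.4% to 63.7% for PG-haESCs and from 50.5% to 61.6% for ICSI-ESCs. Both comparisons use the same 2 MF arrays, so their agreement is not independent. Of the genes called, 10 were higher and 5 lower in both. ACTN3 (higher) and TNNT2 (lower) passed in PG-haESCs alone, FHL2 (higher) and FHL1 (lower) in ICSI-ESCs alone, and apart from FHL1 the 2 ESC groups were not called different in these genes. Without the second MF array the count of genes higher in PG-haESCs fell from 11 to 7. The calls of ACTN3, FHL3, MYL12A and MYO18B as higher ended, and leaving out the first MF array ended the same calls.

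Averaging the arrays of each line first ended the PG-haESC calls of TPM3 (adjusted p = 0.0575), MYO5B (0.058), PDLIM5 (0.0714), TNNT2 (0.12), MYL12A (0.152), MYO18B (0.174), ACTN3 (0.182) and FHL3 (0.247). It ended the ICSI-ESC calls of MYL12A (0.0615), MYO18B (0.0723), PDLIM5 (0.102) and PDLIM2 (0.103). Without a variance trend, the PG-haESC calls of MYL12A (0.057) and FHL3 (0.0641) and the ICSI-ESC call of PDLIM2 (0.0613) ended, and with the 75th percentile filter those of ACTN3 (0.0563) and FHL3 (0.0582) in PG-haESCs. That filter also left MYL7, MYO18B, TNNI3 and TNNT2 untested, so they could not be called under it. Other settings that ended a call are given with the gene.

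**Figure D3:**
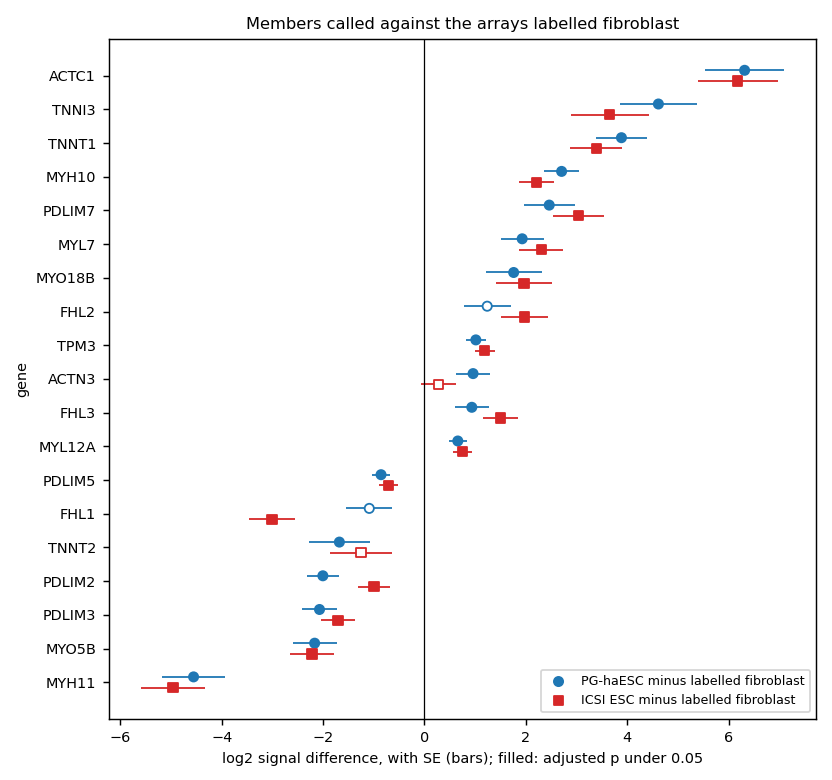
Fitted log2 difference from MF cells (horizontal axis, bars ± SE) for the 19 genes called in either comparison, for PG-haESC and ICSI-ESC, with filled points where the adjusted p is under 0.05. ACTC1 lies farthest to the right at 6.32 and 6.18 and MYH11 farthest to the left at -4.56 and -4.96.

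Among the 4 actins measured, cardiac actin ACTC1 rose in ESCs and the others did not pass in their representative probe sets. On the MF arrays ACTC1 was not above the array median, at 28.78 and 89.63, while PG-haESCs read 2433, 2552, 9198, 9478 and 2779 and ICSI-ESCs 3000, 4172 and 3994. Because the MF signals were at or below the array median, the change is given as a bound: at least 37.3-fold higher in PG-haESCs (fitted difference 6.32 ± 0.78, adjusted p = 6.82e-05) and at least 31.8-fold higher in ICSI-ESCs (6.18 ± 0.79, adjusted p = 8.9e-05). The bound sets the mean of the brighter group against the mean of the array medians of the dimmer one. ACTB was nearly level in its probe set, at 35580 and 39080 in MF (differences 0.16 ± 0.28 and 0.12 ± 0.29). The 3' actin control read 36800 and 40590 in MF and 33770 to 59530 in ESCs. The 5' actin control was lower in MF, at 4385 and 4442 against 9072 to 14670 in ESCs. The part of RNA length in these readings was not tested. The representative probe set of ACTG1 differed by 0.23 ± 0.41 and 0.31 ± 0.41. ACTG2 lay above MF (4237 and 4369) on every ESC array, from 5124 to 21250, without passing (1.05 ± 0.54, adjusted p = 0.16, and 0.43 ± 0.54, adjusted p = 0.599). Its second probe set was called higher in PG-haESCs, at 1290 and 1446 in MF and 2449 to 9178 (1.56 ± 0.51, adjusted p = 0.033), and not in ICSI-ESCs (0.97 ± 0.52, adjusted p = 0.174).

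The heavy chains of myosin 2 moved in opposite directions. MYH10, whose myosin 2B keeps tension on slow time scales, read 466.1 and 491.4 in MF, 3393, 1859, 3423, 3555 and 3506 in PG-haESCs and 1655, 2464 and 2661 in ICSI-ESCs. It was 6.53-fold higher in PG-haESCs (2.71 ± 0.34, adjusted p = 7.77e-05) and 4.63-fold higher in ICSI-ESCs (2.21 ± 0.34, adjusted p = 0.000374). MYH11, the smooth muscle heavy chain, fell: MF read 4509 and 4532, PG-haESCs 195.7, 167.3, 285.7, 560.4 and 93.19, and ICSI-ESCs 123.1, 168.7 and 147.3. The folds were 23.5 (-4.56 ± 0.63, adjusted p = 0.000151) and 31.2 (-4.96 ± 0.63, adjusted p = 8.99e-05), and 3 of its 4 probe sets were called lower in both comparisons. Beside MYH11, summed signals of 7 smooth muscle and pericyte markers were 3961 and 3841 in MF and 1252 to 1989 in ESCs, and their part in this result was not tested. MYH9 read 1467 and 1661 in MF and 1783 to 2596 in ESCs, above MF on all 8 ESC arrays without passing (0.46 ± 0.22, adjusted p = 0.122, and 0.47 ± 0.22, adjusted p = 0.123). MYH7B and MYH2 did not pass.

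Of 7 light chains tested, MYL12A and MYL7 rose in both ESC groups. MYL12A, a regulatory light chain of non-muscle myosin, read 10140 and 10050 in MF and 13690 to 19040 in ESCs (0.66 ± 0.18, adjusted p = 0.0148, and 0.76 ± 0.18, adjusted p = 0.00714). The PG-haESC call ended without MF 1 (adjusted p = 0.0578) or MF 2 (0.0623). MYL7, the atrial regulatory chain, was not above the array median in MF (51.49 and 95.04) and read 202.7 to 309.8 in PG-haESCs and 274.9 to 423.3 in ICSI-ESCs, at least 2.29-fold and at least 2.99-fold higher (adjusted p = 0.00402 and 0.00135). MYL9, the smooth muscle regulatory chain, was lower than MF (2268 and 2172) on all 8 ESC arrays, at 772.1 to 2158, and did not pass (-0.81 ± 0.40, adjusted p = 0.151, and -0.95 ± 0.41, adjusted p = 0.0951). MYL2, MYL4, MYL6 and MYL11 did not pass.

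The unconventional myosins carry cargo or anchor membranes rather than contract. In their representative probe sets, 12 of the 14 tested did not pass in either comparison. MYO5B, which moves recycling endosomes, fell 4.49-fold in PG-haESCs and 4.65-fold in ICSI-ESCs, from 1386 and 1356 in MF to 200.8 to 605.7 and 253.1 to 321.9 (adjusted p = 0.00208 and 0.00191). MYO18B, known from muscle, was not above the array median in MF at 37.34 and 36.16. It read 72.09 to 187.2 in PG-haESCs and 133.2 to 155.9 in ICSI-ESCs, at least 1.18-fold and at least 1.24-fold higher (adjusted p = 0.0266 and 0.0161). With signals under the array median set to it, the MYO18B calls ended (adjusted p = 0.834 and 0.646), and the PG-haESC call also ended without MF 1 (0.0623), MF 2 (0.0686) or PG-haESC 2 (0.0597). MYO6 in ICSI-ESCs (-0.81 ± 0.31, adjusted p = 0.0628) and MYO9A in PG-haESCs (-0.60 ± 0.25, adjusted p = 0.0914) came near the threshold. A second MYO3B probe set was called lower in ICSI-ESCs (-5.47 ± 1.76, adjusted p = 0.0311) and not in PG-haESCs (-4.77 ± 1.75, adjusted p = 0.0531). It read 317.4 and 239.3 in MF. Its ESC signals, 4.304 to 58.65, were all under the array median, so the sizes of these differences are uncertain.

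TPM3, a tropomyosin gene of slow muscle that also gives short isoforms in non-muscle cells, rose 2.02-fold in PG-haESCs and 2.28-fold in ICSI-ESCs. Its signals were 6817 and 7305 in MF, 15490, 17510, 15160, 16020 and 11070 in PG-haESCs and 15550, 16300 and 16420 in ICSI-ESCs (1.01 ± 0.20, adjusted p = 0.00185, and 1.19 ± 0.20, adjusted p = 0.000681). All ESC arrays were above both MF arrays. TPM1 and TPM2, the genes of the muscle and stress fibre tropomyosins, did not pass in their representative probe sets. TPM1 read 16380 and 16280 in MF and 5069 to 20890 in ESCs (-0.56 ± 0.49 and -0.37 ± 0.50), and TPM2 read 4115 and 4205 in MF and 1655 to 6292 in ESCs (-0.37 ± 0.54 and -0.51 ± 0.54).

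Other probe sets of the tropomyosins did not follow the representative ones. Of the 7 TPM2 probe sets tested, 3 were called lower in both ESC groups by -5.87 to -5.44 in PG-haESCs and -5.58 to -5.16 in ICSI-ESCs. One of them, MmuSTS.1894.1.S1_at, read 21950 and 22240 in MF, 162.7, 181.7, 313.4, 453.1 and 1263 in PG-haESCs and 337.7, 488.1 and 1433 in ICSI-ESCs (-5.71 ± 0.81, adjusted p = 0.000186, and -5.16 ± 0.82, adjusted p = 0.000425). Of the 5 TPM1 probe sets, MmugDNA.6545.1.S1_at was called higher in both, at 540.3 and 337 in MF and 1666 to 3456 in ESCs (2.58 ± 0.34, adjusted p = 0.000115, and 2.36 ± 0.35, adjusted p = 0.000244). Averaging all probe sets of a gene gave TPM2 differences of -2.55 (adjusted p = 0.00125) and -2.33 (adjusted p = 0.00254). The same averaging ended both calls of TPM3 (adjusted p = 0.522 and 0.295), MYL12A (0.864 and 0.129) and PDLIM5 (0.444 and 0.979). TPM1 and TPM2 are spliced into many isoforms with different ends. Which transcripts each probe set reads was not determined here, so no single value is given for the change of TPM1 or TPM2.

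**Figure D4:**
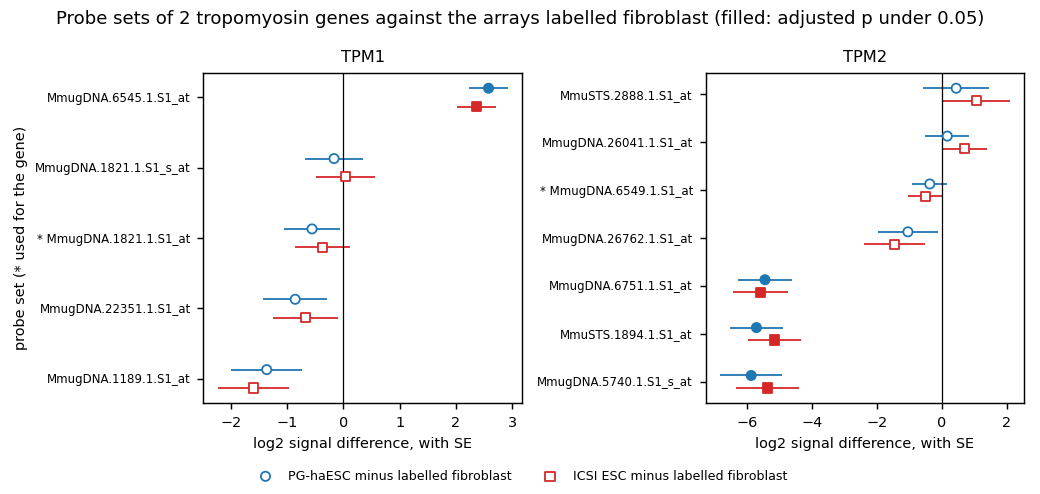
Fitted log2 difference from MF cells (± SE) for each tested probe set of TPM1 (5) and TPM2 (7), for PG-haESC and ICSI-ESC, with the representative probe set of each gene starred. The 3 lowest TPM2 probe sets lie between -5.87 and -5.16, the representative TPM2 probe set at -0.37 and -0.51, and 1 TPM1 probe set at 2.58 and 2.36.

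The same held for a few other genes. The second probe set of ACTG1 was called higher, from 4772 and 4806 in MF to 12800 to 22500 in ESCs (1.64 ± 0.27, adjusted p = 0.000513, and 1.97 ± 0.27, adjusted p = 0.000146). MYL6, the essential light chain of non-muscle and smooth muscle myosin, had 1 probe set higher (1.52 and 1.48) and 1 lower (-1.34 and -1.5), all 4 of them called. A second PDLIM7 probe set rose with the representative one (2.89 and 3.11). Over the 44 further probe sets of 23 of the genes, 4 in PG-haESCs and 6 in ICSI-ESCs were called with the representative one, 0 were called against it in either comparison (limma, adjusted p under 0.05), and 9 and 8 were called where the representative one was not. Of all probe sets tested, 33% were called in PG-haESCs and 32.7% in ICSI-ESCs. Between PG-haESCs and ICSI-ESCs, 0 of the 44 were called by the same limma test and 5 had an unadjusted p under 0.05, where 0.451% of all probe sets were called.

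The troponins regulate striated muscle. Of 5 tested, TNNT1 and TNNI3 were higher in both ESC groups and TNNT2 was lower in PG-haESCs. The slow skeletal gene TNNT1 was not above the array median in MF, at 90.81 and 38.93, and read 1028, 457.2, 834.4, 812.9 and 1235 in PG-haESCs and 780.7, 600.1 and 518.7 in ICSI-ESCs. In this probe set it was at least 7.17-fold and at least 5.39-fold higher (3.89 ± 0.51, adjusted p = 0.000102, and 3.39 ± 0.51, adjusted p = 0.000306). A second, dimmer TNNT1 probe set was called in neither comparison (0.61 ± 1.31, adjusted p = 0.773, and 1.67 ± 1.32, adjusted p = 0.373). TNNI3, the cardiac inhibitory subunit, read 29.23 and 5.457 in MF, not above the array median, and 238.3 to 370.4 in PG-haESCs and 99.11 to 239.2 in ICSI-ESCs, at least 2.69-fold and at least 1.38-fold higher (adjusted p = 0.000543 and 0.00284). Setting signals under the array median to it ended the ICSI-ESC call of TNNI3 (adjusted p = 0.494). TNNT2, the cardiac tropomyosin-binding subunit, was lower in PG-haESCs, at 45.26 to 104 against 213.7 and 184.5 in MF (-1.68 ± 0.61, adjusted p = 0.0499). That call was lost on leaving out MF 1 (0.162), MF 2 (0.112), PG-haESC 1 (0.0626), 2 (0.0843), 3 (0.0749) or 5 (0.0746), or ICSI-ESC 2 (0.0588) or 3 (0.0628), and under quantile normalization (0.125), median centring (0.0975) or no filter on dim probe sets (0.062), and the ICSI-ESC difference did not pass (-1.25 ± 0.61, adjusted p = 0.14). TNNC1 and TNNC2 did not pass. Of 9 striated muscle markers 4 reached the test, and 1 was higher and 1 lower in each ESC group. Muscle creatine kinase (CKM) read 17.7 and 16.51 in MF and 100.5 to 1009 in ESCs, while calsequestrin 2 (CASQ2), a calcium store protein of heart muscle, read 1827 and 1737 in MF and 6.471 to 93.15 in ESCs. The muscle determinant MYOD1 read at most 65.21 on any array, and the part of muscle markers in the troponin values was not tested.

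The calponin family did not pass in its representative probe sets. TAGLN, an early smooth muscle and fibroblast marker, read 3641 and 3509 in MF and 3380 to 12820 in ESCs (0.62 ± 0.58 and 0.67 ± 0.59), and CNN1 read 616 and 498.6 in MF and 223.6 to 1382 in ESCs (-0.07 ± 0.79 and 0.06 ± 0.79). The sign of the CNN1 difference turned under several settings in each comparison. TAGLN2, the non-muscle transgelin, did not pass, although its second probe set was lower in PG-haESCs (-1.11 ± 0.27, adjusted p = 0.00781).

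The PDZ-LIM proteins, adaptors that hold alpha-actinin, kinases and signalling proteins on the filaments, gave 1 gene higher and 3 lower in each ESC group. PDLIM7 (enigma) rose 5.51-fold and 8.18-fold, from 113.4 and 170.8 in MF to 429.2, 1083, 490, 617 and 1244 in PG-haESCs and 1260, 888.8 and 1318 in ICSI-ESCs (2.46 ± 0.50, adjusted p = 0.00227, and 3.03 ± 0.50, adjusted p = 0.000595). PDLIM3, an alpha-actinin partner of muscle Z-discs, fell from 824.5 and 791.3 to 156.4 to 243.8 in PG-haESCs and 214 to 321.1 in ICSI-ESCs (-2.07 ± 0.34, adjusted p = 0.000523, and -1.71 ± 0.34, adjusted p = 0.00214). PDLIM2 fell from 2513 and 2431 in MF by 2.01 ± 0.31 (adjusted p = 0.000353) and by 1.00 ± 0.31 (adjusted p = 0.0278) on the log2 scale. PDLIM5, which recruits kinases to the Z-disc, fell from 4487 and 4249 to 2316 to 2567 and 2244 to 3001 (-0.86 ± 0.18, adjusted p = 0.00323, and -0.70 ± 0.19, adjusted p = 0.0111). Centring arrays on their medians ended the PDLIM5 calls (adjusted p = 0.321 and 0.452) and the ICSI-ESC call of PDLIM2 (0.245). The ICSI-ESC calls also ended without MF 1 for PDLIM5 (0.0607) and without MF 1 (0.0948), MF 2 (0.0806) or ICSI-ESC 2 (0.0806) for PDLIM2.

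Among the LIM-only genes, FHL2 and FHL3 were above MF and FHL1 below MF on all 8 ESC arrays. FHL2, a cofactor of integrin and SRF signalling, read 1846 and 1611 in MF, 3169, 2634, 4800, 5043 and 4793 in PG-haESCs and 3624, 7316 and 11780 in ICSI-ESCs. It passed in ICSI-ESCs (1.98 ± 0.47, adjusted p = 0.00584) and not in PG-haESCs (1.24 ± 0.46, adjusted p = 0.0566). FHL3, a LIM-only protein of skeletal muscle, rose in both, from 225.3 and 227 to 334.5 to 561.6 and 475.2 to 812.2 (0.93 ± 0.34, adjusted p = 0.0489, and 1.5 ± 0.34, adjusted p = 0.0045). FHL1 fell 8.04-fold in ICSI-ESCs (-3.01 ± 0.46, adjusted p = 0.000306) and did not pass in PG-haESCs (-1.09 ± 0.45, adjusted p = 0.0843). ACTN3 was higher than MF (202.8 and 259.3) in PG-haESCs (0.96 ± 0.34, adjusted p = 0.047), and ACTN1 and ACTN4 did not pass. The PG-haESC calls of both FHL3 and ACTN3 were lost without MF 1 (adjusted p = 0.121 and 0.186), MF 2 (0.116 and 0.0607), PG-haESC 1 (0.0793 and 0.0735), 2 (0.0782 and 0.0988), 3 (0.0727 and 0.0568) or 4 (0.0751 and 0.0565), or ICSI-ESC 2 (0.0574 and 0.0525), and that of FHL3 also without ICSI-ESC 3 (0.0517) or with median centring (0.0518) or signals under the array median set to it (0.0507).

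The 20 genes not tested include most muscle heavy chains (MYH3, MYH4, MYH6, MYH8, MYH13, MYH15 and MYH16), the non-muscle heavy chain MYH14, ACTN2, FHL5, MYL1, MYL3, MYL5, MYO1A, MYO3A, MYO7B, TNNI1, TNNI2, TNNT3 and TNNI3K, a kinase that only shares the troponin name. Of these, 14 were above the median of no array and 6 of 1 array, with a highest signal of 235.1 for TNNI1 on PG-haESC 2. Their signals set no level, and their absence was not shown.

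The next question was whether the 5 ESC lines differed among themselves. An F test over the lines, with line as a fixed factor, called 3 of the 53 genes: PDLIM1 (adjusted p = 0.0223), FHL1 (0.0245) and PDLIM2 (0.0408), where 3.55% of all genes were called. The lines include both kinds of ESC, so this test holds the difference between the kinds as well. MPH2, MES1, MES2 and MES3 have 1 array each and were assumed to vary like the repeated arrays of MPH1 and MF. The number of genes called was 0 without MF 1, MF 2 or PG-haESC 1, 1 without PG-haESC 3 and 5 without PG-haESC 2. After these 3 came MYO5B (0.0936), FHL2 (0.0974), MYO6 (0.187), FHL3 (0.211), MYL2 (0.225), TPM2 (0.23) and TNNC2 (0.237).

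Within PG-haESCs, MYO5B was higher in MPH2, at 605.7, than on the 4 MPH1 arrays, at 200.8 to 252.3 (1.45 ± 0.27, adjusted p = 0.0467, limma). It was the only one of the 53 genes called in that contrast, where 0.619% of all genes were higher and 0.619% lower, and 6 of the 53 had an unadjusted p under 0.05. Within ICSI-ESCs, none of the 53 genes passed in the contrast of MES1, MES2 or MES3 with the mean of the other two (limma), and 7, 4 and 1 of them had an unadjusted p under 0.05. Of all genes, 0.584% were higher and 0.404% lower in MES1, 0% and 0.00859% in MES2, and 0% and 0.00859% in MES3. MES1 was lowest of the 3 for FHL2 (3624 against 7316 and 11780; -1.36 ± 0.37, adjusted p = 0.121). It was highest for FHL1 (2106 against 788.2 and 894.1; 1.33 ± 0.41, adjusted p = 0.158) and for the representative probe set of TPM2 (6292 against 1655 and 2402; 1.66 ± 0.44, adjusted p = 0.118). In the 3 TPM2 probe sets called lower than MF in both ESC groups, MES1 was instead lowest of the 3 lines. It read 337.7 against 488.1 and 1433, 289.7 against 386.6 and 1258, and 15.31 against 27.75 and 47.48. MES1 is also the ESC array with the highest fibroblast and feeder marker signal (147900) and a later passage (12 against 4 and 4), whose part in these values was not tested.

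The 4 arrays titled MPH1 carry 2 description codes, M1 (PG-haESC 1 and 2) and M2 (PG-haESC 3 and 4), and several actin and smooth muscle genes had signals that did not overlap between them. This comparison was chosen after the values were seen. None of the 53 genes passed in either direction (limma, adjusted p under 0.05), and 0.00859% of all genes were called higher and 0.00859% lower. An unadjusted p under 0.05 was found for 16 of the 53 and for 1407 of all 11639 genes. Both M2 arrays exceeded both M1 arrays for 15 genes and were below them for 8, where 17.3% of all genes were above and 23.2% below.

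The genes named here were picked after their values under the codes were seen. TAGLN read 3965 and 3380 under M1 and 8991 and 12820 under M2 (1.55 ± 0.18, adjusted p = 0.0992). ACTC1 read 2433 and 2552, then 9198 and 9478 (1.91 ± 0.45, adjusted p = 0.287). On the arrays of the other ESC lines ACTC1 read 2779 to 4172 and TAGLN 4136 to 6639, between the M1 and M2 arrays. This did not hold for ACTG2 (5124 to 6467 on the other lines) or CNN1 (223.6 to 983.1). Nor did it hold for MYH11 (93.19 to 168.7, with 195.7 and 167.3 under M1). ACTG2 was 9266 and 6255 under M1 and 14380 and 21250 under M2 (1.20 ± 0.24, adjusted p = 0.237). CNN1 was 504.2 and 302.4, then 863 and 1382 (1.48 ± 0.33, adjusted p = 0.26). Like values came from MYL9 (0.96 ± 0.24, adjusted p = 0.304), TPM1 (0.87 ± 0.22, adjusted p = 0.308), MYH11 (1.15 ± 0.34, adjusted p = 0.362), FHL1 (0.83 ± 0.17, adjusted p = 0.249) and FHL2 (0.77 ± 0.14, adjusted p = 0.216). ACTN4 differed by 2.27 ± 0.68 (adjusted p = 0.362), with both M1 arrays under the array median, at 27.26 and 24.56. The muscle troponin TNNC1 differed by -1.82 ± 0.70 (adjusted p = 0.432), with both M2 arrays under it, at 76.66 and 22.27. Such signals set no level, so the sizes of these 2 differences are uncertain. The second probe sets of TAGLN and ACTG2 gave 1.86 and 1.13.

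The representative probe sets of the cytoplasmic actins went the other way. ACTB read 52310 and 56570 under M1 and 33060 and 41280 under M2 (-0.56 ± 0.15, adjusted p = 0.324). ACTG1 read 68330 and 100300, then 41210 and 54690 (-0.80 ± 0.22, adjusted p = 0.33). The second probe set of ACTG1 overlapped between the codes, at 13190 and 22500 under M1 and 13470 and 16310 under M2 (-0.22). The 5' actin control probe set read 12500 and 12000 under M1 and 12990 and 13600 under M2. Where signals under the array median were set to it, 3 of the 53 genes passed as higher under M2: TAGLN (adjusted p = 0.00604), ACTC1 (0.000575) and ACTG2 (0.0447). Their differences stayed at 1.55, 1.91 and 1.20. The share of all genes called under this setting was not counted, so these 3 calls cannot be read against a background.

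Several other measures differed between the codes, and their part in these values was not tested. Of 10 mesendoderm markers, genes of the first differentiation steps, 7 were below M1 on both M2 arrays and 1 above, with a median difference of -2.05, led by CER1 (-4.30) and GSC (-3.38). Of 18 genes from the SRF and MRTF list, 6 were above and 3 below, with CCN1 at 1.58, CCN2 at 0.86, TRIP6 at 0.48 and CALD1 at 0.47, and SMTN at -1.69, FLNA at -0.57 and TLN2 at -0.38. Over all genes tested 17.3% were above and 23.2% below, and the counts of lists this short are a description only. The summed fibroblast and feeder markers overlapped between the codes, at 32380 and 58920 under M1 and 24010 and 62290 under M2, and of 7 smooth muscle and pericyte markers 0 were above M1 on both arrays and 1 below. The 3' to 5' actin ratio was 4.71 and 4.96 under M1 and 3.08 and 3.61 under M2, and array medians were 96.1 and 132.7 against 77.9 and 95.8. With codes in place of lines in the F test, where 3.4% of all genes were called, 4 genes passed: FHL1 (adjusted p = 0.0146), FHL2 (0.02), TAGLN (0.0381) and PDLIM1 (0.0439).

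**Figure D5:**
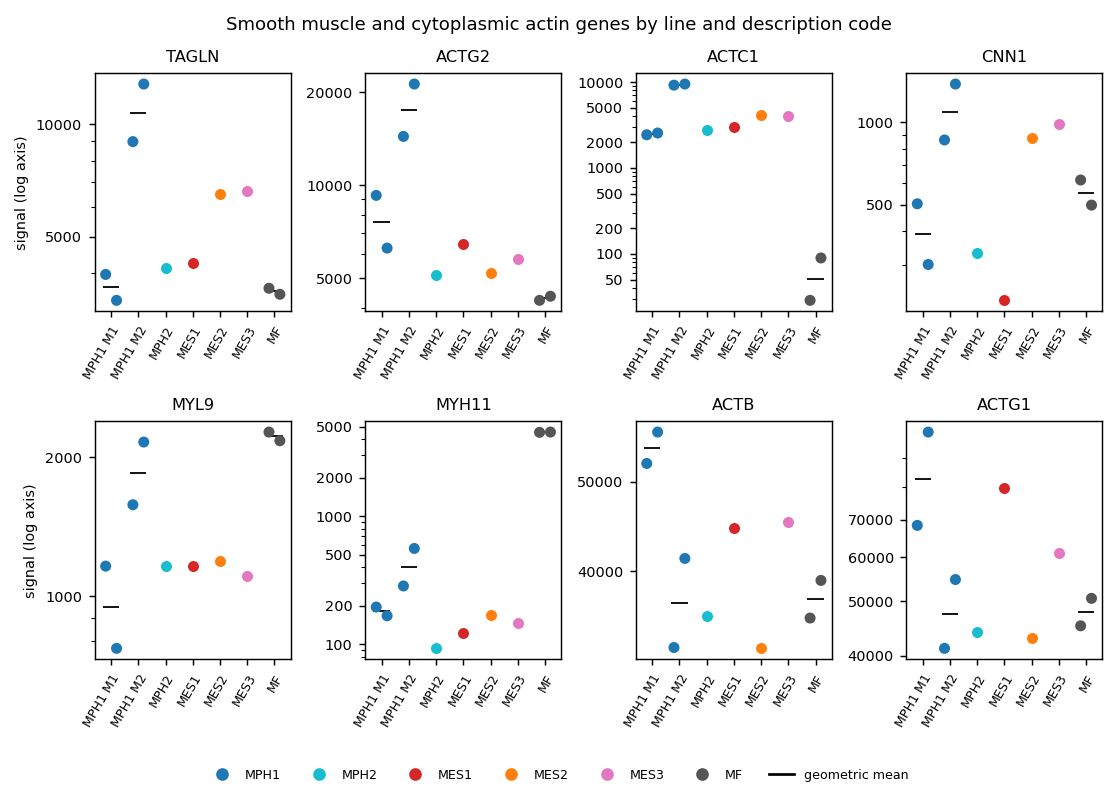
Signal of TAGLN, ACTG2, ACTC1, CNN1, MYL9, MYH11, ACTB and ACTG1 on each array (points, log axis), by line, with the MPH1 arrays divided by description code M1 and M2. For TAGLN, ACTG2, ACTC1, CNN1, MYL9 and MYH11 both M2 points lie above both M1 points, and for ACTB and ACTG1 below them.

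Genes around the family were followed through lists of actin dynamics and of SRF and MRTF genes. Between PG-haESCs and ICSI-ESCs, 0 genes were called in either list by limma, and 5 of 27 and 5 of 18 had an unadjusted p under 0.05. The smallest p-values belonged to MSN (moesin, which ties actin to the membrane; 0.72 ± 0.16, adjusted p = 0.0958), ACTR2 (a subunit of the Arp2/3 nucleator; -0.61 ± 0.14, adjusted p = 0.0984) and ZYX (zyxin of focal adhesions; -0.85 ± 0.21, adjusted p = 0.129).

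In the list of actin dynamics, 8 of 27 tested genes were higher and 4 lower in PG-haESCs than in MF (all genes 23% higher and 17.3% lower), and 9 and 4 in ICSI-ESCs (all genes 22.6% and 17%). The medians were 0.35 and 0.21, against 0.06 and 0.08 over all genes, and counts this near the background are no result about the list. Profilin 2 (PFN2), which feeds actin monomers to growing ends, rose by 3.26 ± 0.19 and 2.93 ± 0.19. The capping subunit CAPZA2 rose by 2.91 ± 0.20 and 3.01 ± 0.20, and the Arp2/3 activators WASF3 and WASF1 by 3.20 ± 0.28 and 3.16 ± 0.30 in PG-haESCs. Gelsolin (GSN), which severs filaments, fell by 4.28 ± 0.53 and 3.96 ± 0.53, and the bundling protein LCP1 by 2.25 ± 0.27 and 1.91 ± 0.27.

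Of 18 SRF and MRTF factors and targets outside the family, 4 were higher and 5 lower in PG-haESCs (all genes 23% higher and 17.3% lower) and 6 higher and 4 lower in ICSI-ESCs (all genes 22.6% and 17%). Over so few genes these counts are a description only, and the medians were 0.03 and -0.10. CSRP2, a LIM protein of muscle, rose by 3.05 ± 0.23 and 2.88 ± 0.23, and the matricellular gene CCN2 by 2.13 ± 0.36 and 2.54 ± 0.37. The cofactor MRTFB fell by 1.06 ± 0.17 and 1.09 ± 0.17. SYNPO2, an actin-binding protein of smooth and striated muscle, was not above the array median in either ESC group and at least 14.2-fold and at least 14.1-fold lower than in MF.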

How the data were processed

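The authors deposited MAS5 signal intensity values on a linear scale, 1 per probe set and array, per the submitters' processing notes (release not given in the sources used here). Total RNA was extracted with TRIZOL and labelled from its 3' end, per the labels' protocols. Of 52865 probe sets, 158 controls were left out, and the 34140 above the array median on at least 2 arrays were tested on log2 signal with limma 3.58.1 in R 4.3.3. One model of all 10 arrays gave the group means, with cell line as a random block (correlation 0.29) and a variance trend. P-values were adjusted by Benjamini-Hochberg over all probe sets tested, with a threshold of 0.05. Lines and, as a comparison added after the values were seen, description codes were fitted as fixed factors. A group with no array above its median gave a lower bound. Genes were named from the platform annotation; 4 probe sets of these genes with several symbols were left out. The code was checked on simulated data.

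The genes and lists were chosen with earlier results of these data known. Full statistics go to called genes, up to 12 higher and 12 lower, to the 3 smallest p-values where none was called, to ACTB, ACTG1, ACTC1, ACTN1, ACTN4, MYH9, MYH10, MYL9, TPM1, TPM2, TAGLN, CNN1, PDLIM1 and FHL1, to the 10 smallest F test p-values and to at most 4 genes of each pathway list; the genes of 1 list are not reported here. Alternatives changed the block, offset, normalization, filter, variance trend, probe set rule, arrays in the fit and floor. No sequences or promoter motifs were analysed here.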

Additional observations from a re-analysis of the deposited data

Results flagged for a closer look

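Of 53 groups of PG-haESC arrays looked at, 1 for each tested gene, 3 held a sample far from the other four, and chance alone gives about 1 in 20. MYH10 read 1859 on PG-haESC 2 and 3393 to 3555 on the others. MYH9 read 1810 on PG-haESC 1 and 2135 to 2269 on the others. MYO5B read 605.7 on PG-haESC 5, the MPH2 array, and 200.8 to 252.3 on the 4 MPH1 arrays.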

How the results depend on the processing

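No paired analysis was possible because the labels number replicates for the MF cells only, and the groups share no replicate numbers. Higher in PG-haESCs than MF were 6 genes with the arrays of each line averaged first, 6 with the 75th percentile filter and 7 to 13 with 1 array left out; lower were 10 with arrays as independent samples, 3 with lines averaged, 10 without the 2 arrays with the highest spike-in signals (added after seeing the data) and 5 to 8 with 1 array left out. Lower in ICSI-ESCs than MF were 10 when only the arrays of the groups compared were fitted, there without a line block because its correlation could not be estimated, and 4 to 9 with 1 array left out. Between the ESC groups, the count of genes higher was 0 with lines averaged, median centring, the 75th percentile filter, no variance trend or only the groups compared, 2 without the 2 spike-in arrays, and 0 to 1 with 1 array left out. The count of genes lower was 0 under the same 5 settings and without the 2 spike-in arrays, 2 with arrays as independent samples and 0 to 1 with 1 array left out. The line F test called 0 genes with median centring, no variance trend or only the ESC arrays, and 0 to 5 with 1 array left out. Under M2, 3 genes were called higher with signals under the array median set to it, where the share of all genes was not counted. Over all probe sets tested the calls moved as well. Lower in PG-haESCs than MF were 5479, then 7735 with independent arrays, 2724 with lines averaged and 7026 without the 2 spike-in arrays. Lower in ICSI-ESCs were 5517, then 7151 with only the groups compared. Between the ESC groups calls went from 154 to 9 with lines averaged, 14 with median centring and 13 without a variance trend. MYL7, MYO18B, TNNI3 and TNNT2 did not enter the test with the 75th percentile filter. The cause of the other moves was not tested.

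No called gene changed sign under any setting run. Uncalled log2 differences did. Between PG-haESCs and ICSI-ESCs, TAGLN turned to 0.022 (independent arrays), 0.012 (median centring) and 0.039 (all probe sets averaged), with -0.29 to 0.14 on leaving out 1 array. With lines averaged, ACTB was -0.016, ACTC1 -0.009, MYH9 0.018 and TPM1 0.056. MYH9 was 0.04 with median centring, 0.003 with the 75th percentile filter and 0.11 without the 2 spike-in arrays, where TPM1 was 0.054. TPM2 was -0.22 with all probe sets averaged, and ACTN4 0.022 with the floor at the array median. Leaving out 1 array gave -0.10 to 0.15 for ACTB, -0.10 to 0.39 for ACTC1, -0.31 to 0.16 for ACTG1, -0.303 to 0.053 for ACTN1, -0.76 to 0.25 for CNN1, -0.14 to 0.13 for MYH9, -0.019 to 0.286 for MYL9, -0.613 to 0.012 for TPM1 and -0.27 to 0.70 for TPM2. Against MF, CNN1 in PG-haESCs was 0.042 (independent arrays), 0.21 (quantile), 0.28 (median centring), 0.002 (only the groups compared), 0.16 (without the 2 spike-in arrays) and -0.33 to 0.24 without 1 array. In ICSI-ESCs, CNN1 was -0.32 to 0.75 without 1 array, ACTN4 was 0.19 (quantile), 0.16 (median centring), 0.069 (without the 2 spike-in arrays) and -0.91 to 0.67 without 1 array, and MYL6 was -0.13 with all probe sets averaged. ACTN4 in PG-haESCs was -1.39 to 0.19 without 1 array. Signals near the array medians, such as those of ACTN4, MYO18B and TNNI3, limit what can be read.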
